A study of Mus musculus with 4 samples.

Results

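The genes described here encode the core histones H2A, H2B, H3 and H4 and lie in the chromosomal histone clusters. They were taken as the protein-coding genes whose symbols follow the naming pattern of the clustered histone genes, and 58 of the 45777 genes in the expression table met that rule. There were 18 H2A genes, 17 H2B genes, 12 H3 genes and 11 H4 genes. Of these, 47 lie on chromosome 13, 10 on chromosome 3 and 1 on chromosome 11. The linker histone H1 genes and the variant histones, which carry other symbols, were not members.

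The study compared a pair of culture models of exercise in C2C12 myotubes, the multinucleate muscle cells formed by a mouse myoblast line. One library was made for each of 4 groups: a library titled EPS (read here as electrical pulse stimulation), a library titled control for EPS, a clenbuterol library and its control. Clenbuterol is a beta2-adrenergic agonist. All cultures were in DMEM with 2% horse serum, and the treatment field gives 30 ng/ml clenbuterol for all 4 samples, controls included, so the field does not separate the groups. No source used here gives pulse settings or durations. RNA was extracted with ISOGEN and sequenced with a stranded TruSeq kit for poly(A) RNA. In the deposited table the names of both EPS libraries are the reverse of their titles. Groups follow the titles here, the values were not used to decide, and every direction in the EPS pair turns round if the names in the table are right. With 1 library per group there is no replicate check, no p-value is given, and the 95% intervals below are exact binomial (Clopper-Pearson) intervals that cover counting error only. Fewer cells of a type and less RNA per cell cannot be told apart in such bulk libraries.

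Most core histone protein is made during DNA replication, from genes that have no introns and whose mRNAs end in a conserved stem-loop instead of a poly(A) tail. The stem-loop binding protein SLBP holds that end through processing and translation, and the mRNAs are destroyed when replication stops. Some clustered genes also give polyadenylated transcripts, which are known from differentiated cells that no longer divide. A poly(A) library is built to capture the tailed form, so the values below say little about the untailed replication mRNAs. Whether some untailed mRNA was carried over into these libraries was not tested.

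The stem-loops of 6 abundant members and of H2aw, which had the widest difference in the clenbuterol pair, are shown first, since they mark the end that a poly(A) library is not built to capture. Each window gives the 16 bases of the stem-loop in capitals with the flanking bases in lower case, on the transcribed strand, from GENCODE M21 transcripts on GRCm38. H2bc8 has it at chr13:23571843-23571858 (plus strand), H2ac18 at chr3:96246032-96246047 (plus), H4c9 at chr13:22040966-22040981 (minus), H2bc12 at chr13:22036300-22036315 (plus), H3c14 at chr3:96247327-96247342 (plus), Hist1h4n at chr13:21831798-21831813 (minus) and H2aw at chr11:58955172-58955187 (plus). All lie in the 3′ UTR.
H2bc8: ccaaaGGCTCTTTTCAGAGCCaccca
H2ac18: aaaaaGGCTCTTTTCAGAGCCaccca
H3c14: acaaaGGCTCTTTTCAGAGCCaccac
H2aw: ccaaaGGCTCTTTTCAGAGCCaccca
H2bc12: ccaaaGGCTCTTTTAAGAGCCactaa
H4c9: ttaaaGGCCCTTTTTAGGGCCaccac
Hist1h4n: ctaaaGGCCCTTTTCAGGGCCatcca
The H2bc8, H2ac18, H3c14 and H2aw windows share 1 form of the stem-loop, and the H2bc12, H4c9 and Hist1h4n windows each hold another.

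All 58 members matched GENCODE transcripts, and 43 of them have an annotated 3′ UTR of at least 40 bases. The stem-loop was found in 39 of these 43, starting 22 to 59 bases after the stop codon. The same search in the first 74 bases after the stop codon found it in 21 of 20894 other genes (0.101%). It occurred in 8 forms. One form, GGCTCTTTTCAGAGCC, stood in 22 members of the H2A, H2B and H3 types, and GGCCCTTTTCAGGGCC stood in 5 H4 genes. The 4 members with a long enough UTR and no stem-loop in it were all H2B genes: H2bc4, H2bc21, Hist1h2bq and Hist1h2br. Only annotated transcripts were searched, not introns or genomic sequence past a transcript end. The H2bc4 transcript is spliced before the place where the loops start. The unspliced Hist1h2bq and Hist1h2br transcripts have 0 bases of 3′ UTR. Whether the genomic sequence after the stop codon holds a stem-loop in H2bc4, Hist1h2bq and Hist1h2br was therefore not tested.

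Spliced transcripts are annotated for 5 members, all of them H2B genes: H2bc4, H2bc6, Hist1h2bp, Hist1h2bq and Hist1h2br. In H2bc4 the splice site lies 9 bases after the stop codon, and the second exon holds the rest of the 3′ UTR with no stem-loop. Together the 5 genes held 44.1% of the members' TPM averaged over the 4 libraries, where TPM is the deposited level scaled for gene length and for the library's total. H2bc4 alone held 35.8%. Among the 39 members with a stem-loop, 17 have an annotated transcript that runs at least 100 bases past it, and their median level was 2.23 TPM. The other 22 end nearer to the loop, and their median level was 2.07 TPM. An AATAAA or ATTAAA poly(A) signal follows the loop in 11 of the 17. The gene spans of the deposited table stop a median of 5 bases past the loop, and 36 of 39 stop within 60 bases of it. Reads beyond that point lie outside the deposited span, and whether they were counted was not tested.

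Clustered histone RNA was detected at a low total level in every library. Summed over the 58 members it came to 643 TPM in the titled EPS library, 579 TPM in the titled EPS control, 974 TPM with clenbuterol and 913 TPM in the clenbuterol control. These sums were 0.0643%, 0.0579%, 0.0974% and 0.0913% of all TPM in the same libraries. Both libraries of the clenbuterol experiment were above both of the EPS experiment. The counts behind the sums were 6289, 5069, 8366 and 8082 in that order, out of total estimated counts between 32640884 and 35597074. In the same libraries 13412 to 13489 of all genes reached 1 TPM. Between 38 and 42 members reached 1 TPM in a given library, 49 did so in at least 1 library, and 9 stayed below it in all 4. H2ac1 was at 0 counts in all 4 libraries, which allows up to 3 counts in each. H2ac21 had 1, 1, 0 and 3 counts.

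A few genes carried most of that RNA. The 10 most abundant members held between 79.1% and 80.8% of the summed TPM in each library. H2bc4 (Gene ID 68024, formerly Hist1h2bc, chr13:23684199-23692480 on GRCm38) led in all 4 libraries, with 241.5 TPM in the titled EPS library, 213 TPM in the titled EPS control, 332.9 TPM with clenbuterol and 326.1 TPM in its control. Its share of the members' TPM lay between 34.2% and 37.6%. H2bc8 (chr13:23571400-23571863) was the next member, with 63.5, 60.01, 91.9 and 79.98 TPM in the same order, so the leading member was more than 3 times as abundant as the next in every library.

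H2B genes held between 65.1% and 68.2% of the members' TPM in each library. Their summed level was 438.6 TPM in the titled EPS library, 385.6 TPM in the titled EPS control, 641.3 TPM with clenbuterol and 594.5 TPM in its control. H2A genes summed to 96.8, 95.8, 146.7 and 141.7 TPM in that order. H3 genes gave 43.5, 44.9, 64.4 and 67.8 TPM, and H4 genes gave 64.1, 52.3, 122.1 and 108.9 TPM. The types are equal partners in the nucleosome, and their RNA levels in these poly(A) libraries were far apart in all 4 libraries.

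Each type had its own leading genes. Among H2A genes, H2ac18 reached 43.6, 44.4, 65.8 and 65.3 TPM and its neighbour H2ac19 reached 30.8, 32.5, 46.2 and 46.7 TPM, in the order titled EPS, titled EPS control, clenbuterol, clenbuterol control. H4c9 led the H4 genes with 37.7, 30.9, 70.5 and 68.96 TPM. H3c14 led the H3 genes with 12.8, 14.02, 17.4 and 20.7 TPM, close to H3c15 with 12.01, 12.5, 16.8 and 21.1 TPM. For each of these 5 genes both libraries of the EPS experiment lay below both of the clenbuterol experiment, as did 25.1% of all 14213 genes with at least 1 TPM in any library. Between H3c14 and H3c15 the order changed in the clenbuterol control, so these neighbours cannot be ranked.

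Genes that encode the same protein differed widely in level. All 11 H4 members encode 1 identical protein of 103 residues in the annotation, and their mean TPM over the 4 libraries ran between 0.786 for H4c11 and 52.0 for H4c9. Identical proteins are also encoded by 9 of the H2A genes, 6 of the H2B genes and 8 of the H3 genes. In addition, 5 pairs of members (10 genes) have identical coding sequences: H2ac18 with H2ac19, H3c14 with H3c15, Hist1h2ao with Hist1h2ap, Hist1h2bq with Hist1h2br, and Hist1h4m with Hist1h4n. No source used here says how reads were divided within these pairs, and values of single copies are uncertain for that reason.

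**Figure D1:**
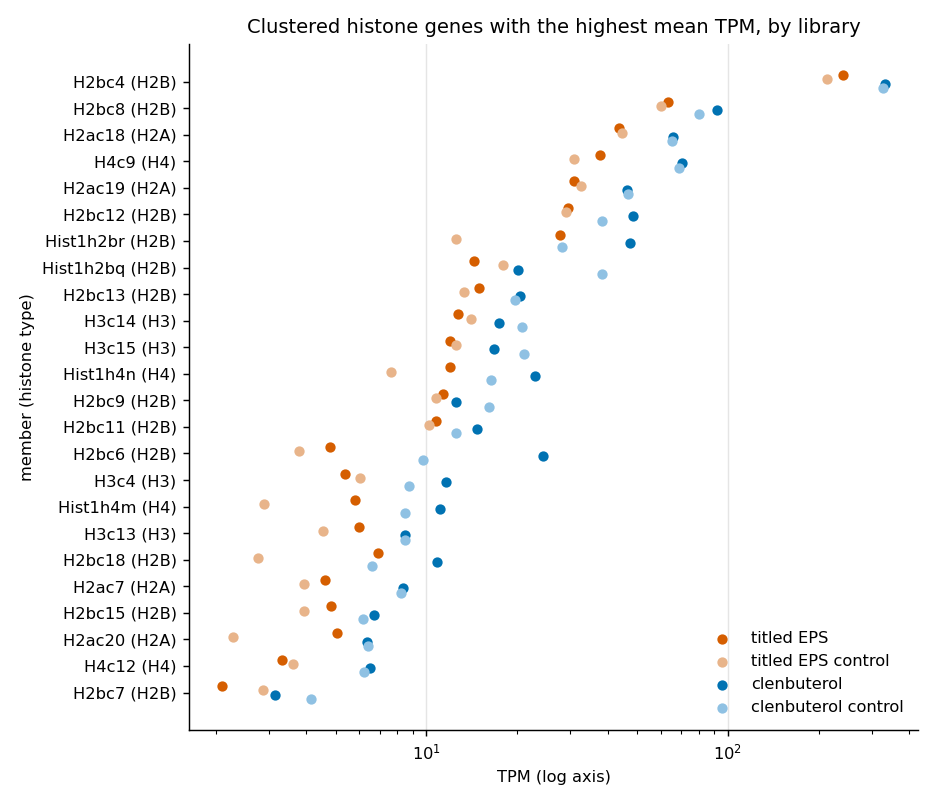
TPM (log axis) of the 24 members with the highest mean level, 1 point per library; the histone type stands in brackets. H2bc4 lies between 213 and 332.9 TPM, above every other member, and the clenbuterol and clenbuterol control points lie right of both EPS points for most genes.

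Neighbouring H2A and H2B genes that start head to head had unequal levels. A search for members on opposite strands with starts within 500 bases found 12 pairs, each of 1 H2A and 1 H2B gene, with gaps of 163 to 280 bases between them. The H2B gene had the higher mean TPM in 10 pairs and the H2A gene in 2, H2ac7 over H2bc7 and H2ac20 over H2bc21. By the ratio of mean TPM over the 4 libraries the widest pair with reads on both sides was H2bc4 and H2ac6, at 115. H2ac6 had 2.25 TPM in the titled EPS library, 0.983 TPM in the titled EPS control, 3.36 TPM with clenbuterol and 3.10 TPM in its control. The H2bc4 level was 108, 217, 98.9 and 105 times as high in those libraries, on 18, 7, 24 and 22 counts for H2ac6. In the clenbuterol library the ratios of Hist1h2br to Hist1h2ap, at 124, and of H2bc8 to H2ac8, at 115, were wider still. In the titled EPS library, the titled EPS control and the clenbuterol control the first ratio was 46.6, 18.3 and 64.5. The second was 97.9, 41.8 and 87.1, so in those libraries both were narrower than for H2bc4 and H2ac6. Both H2A genes were below 1 TPM with clenbuterol, and Hist1h2br and Hist1h2ap each have a copy with identical coding sequence. The order of these pairs in the clenbuterol library is therefore uncertain. H2bc8 averaged 73.9 TPM against 0.951 TPM for H2ac8, and Hist1h2br averaged 28.9 TPM against 0.525 TPM for Hist1h2ap. The narrowest ratio among the pairs led by H2B was 3.34, for Hist1h2bp over Hist1h2an.

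**Figure D2:**
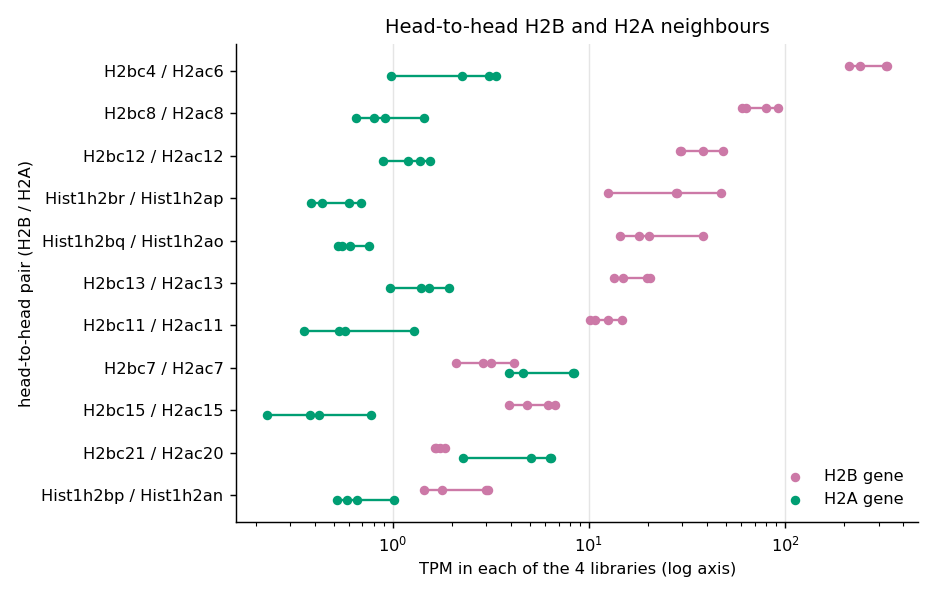
TPM (log axis) in each of the 4 libraries for 11 head-to-head pairs of an H2B and an H2A gene; each point is a library and the line spans its range. In each library the H2B gene was the higher in 9 of these pairs and the H2A gene in the other 2; the pair of H2bc1 and H2ac1 is left out because H2ac1 was at 0.

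The promoter shared by the pair with the widest ratio of means is printed, because the whole gap between H2bc4 and H2ac6 fits within it. It is the RefSeq window (GRCm38.p6, minus strand, chr13:23683910-23684209) from 250 bases before to 50 bases after the start of H2ac6. Capitals mark matches on either strand to 3 motifs. The first is ATTTGCAT, the octamer bound by OCT1. The second is CCAAT, bound by NF-Y. The third is TATAAA, bound by the general factor TBP.
H2ac6: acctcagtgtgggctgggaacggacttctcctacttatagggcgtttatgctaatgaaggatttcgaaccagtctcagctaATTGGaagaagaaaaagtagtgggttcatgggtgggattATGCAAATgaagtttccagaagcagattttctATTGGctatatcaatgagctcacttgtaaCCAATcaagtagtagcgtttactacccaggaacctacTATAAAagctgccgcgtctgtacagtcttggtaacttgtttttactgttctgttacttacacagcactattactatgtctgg
The octamer begins at base 121 of the window, CCAAT matches begin at bases 82, 153 and 182, and TATAAA begins at base 219. The motifs do not overlap each other here.

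Windows of this kind were available for 53 members. Members were counted as genes, with a motif in any window of the gene, while the share of all windows was counted by window. The octamer was present in 7 of 18 H2A genes and 7 of 15 H2B genes. It was in none of 10 H3 and 10 H4 genes, and in 1.74% of all 32851 windows of the table. CCAAT was present in all 18 H2A, 15 H2B and 10 H3 genes and in 3 of 10 H4 genes, against 37.4% of all windows. TATAAA was found in 11 of 18 H2A, 7 of 15 H2B, 4 of 10 H3 and 8 of 10 H4 genes, against 13.6% of all windows. Head-to-head pairs share much of their windows, so the H2A and H2B counts are not independent.

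The clenbuterol pair asks whether histone RNA differed after exposure to the agonist. The sum over members was 974 TPM with clenbuterol and 913 TPM in the control, a CPM fold of 1.07 (95% counting interval 1.03 to 1.10), where CPM is the count scaled to the library's TMM-adjusted total. By type the CPM fold was 1.14 for H4 (1.02 to 1.27), 1.07 for H2B (1.04 to 1.11), 1.04 for H2A (0.962 to 1.13) and 0.946 for H3 (0.841 to 1.06). Of 44 members with at least 1 TPM in either library, 2 were at least 2-fold higher on the log2(TPM + 1) scale, H2aw and H2bc6, against 1.0% of the 13788 genes tested. None was at least 2-fold lower, against 0.515% of all genes. On the log2(CPM + 1) scale 1 member, H2aw, was at least 2-fold higher, against 0.442% of all genes. The median member differed by 0.04 on the log2 scale and the median of all genes by -0.01, with 27 members above the control and 17 below it, against 46.4% and 53.6% of all genes. That difference scale understates the change of genes with low TPM.

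Among the 31 members with at least 20 counts in either library, the counting interval of the CPM fold lay above 1 in 5, against 17.9% of all genes, and below 1 in 1, against 14.2% of all genes. A counting interval narrows as counts rise, and counts were not matched between members and all genes. These shares, and the same shares in the EPS pair below, therefore draw no contrast between members and all genes. H2bc12 (chr13:22035821-22036320) had 48.3 TPM with clenbuterol and 38.4 TPM in the control, a CPM fold of 1.27 (1.08 to 1.49). H2bc8 gave a CPM fold of 1.17 (1.04 to 1.31). Hist1h4n had 22.9 TPM with clenbuterol against 16.4 TPM in the control, a CPM fold of 1.41 (1.08 to 1.85), and H2bc18 had 77 counts against 48, a CPM fold of 1.65 (1.14 to 2.42). H3c11, with 22 against 15 counts, had a CPM fold of 1.51 with a wider interval (0.748 to 3.13). The abundant H2bc4 gave a CPM fold of 1.04 (0.996 to 1.10).

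The lower end of the clenbuterol pair held H2B and H3 genes. H3c15 had 16.8 TPM with clenbuterol against 21.1 TPM in the control, a CPM fold of 0.803 (0.647 to 0.995). Summed with its identical copy H3c14 the CPM fold was 0.826 (0.711 to 0.959), on 322 counts against 401. H2bc3, H2bc7 and H2bc9 had CPM folds of 0.761, 0.772 and 0.787, each with an interval that included 1.

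H2aw, the single member on chromosome 11 (chr11:58954685-58955192), had the widest difference. Clenbuterol gave 41 counts and the control 4, or 5.58 TPM against 0.427 TPM, a CPM fold of 10.5 (3.82 to 40.6). Both EPS libraries lay between these, with 8 counts in the titled EPS library and 14 in the titled EPS control. Its whole span lies inside Trim17 on the same strand, a ubiquitin ligase gene with 220 counts after clenbuterol against 234 in its control, so reads of the 2 genes could be exchanged by the counting. Trim17 itself had a CPM fold of 0.968 (0.801 to 1.17).

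The other member past 2-fold, H2bc6, passed on TPM alone. It had 24.3 TPM with clenbuterol and 9.72 TPM in the control, a TPM fold of 2.51, on 194 counts against 175, a CPM fold of 1.14 (0.925 to 1.41). Its deposited span of 37455 bases holds spliced transcripts, and it was the only member with at least 20 counts whose TPM and CPM folds were more than 2-fold apart. TPM and CPM folds lay within 0.2 of each other on the log2 scale for 27 of 31 members in the clenbuterol pair and 21 of 24 in the EPS pair.

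Part of the myoblast marker list differed in the clenbuterol pair. Of the 10 genes on that list 9 were higher with clenbuterol, against 46.4% of all genes, with a median log2 difference of 0.14. The sum was 905 TPM with clenbuterol against 782 TPM in the control, and Id3 alone had 115.9 TPM against 35.9 TPM. Some of the 9 barely differed, such as Heyl at a CPM fold of 1.02 (0.892 to 1.18). Hey1 and Id3, transcriptional repressors, were past 2-fold, against 1.0% of all genes. Their CPM folds were 5.99 (4.85 to 7.47) and 3.27 (2.95 to 3.62). Of the 13 myotube markers 7 were higher and 6 lower, with a median of 0.05. The part of these markers in the histone differences of the clenbuterol pair was not tested.

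**Figure D3:**
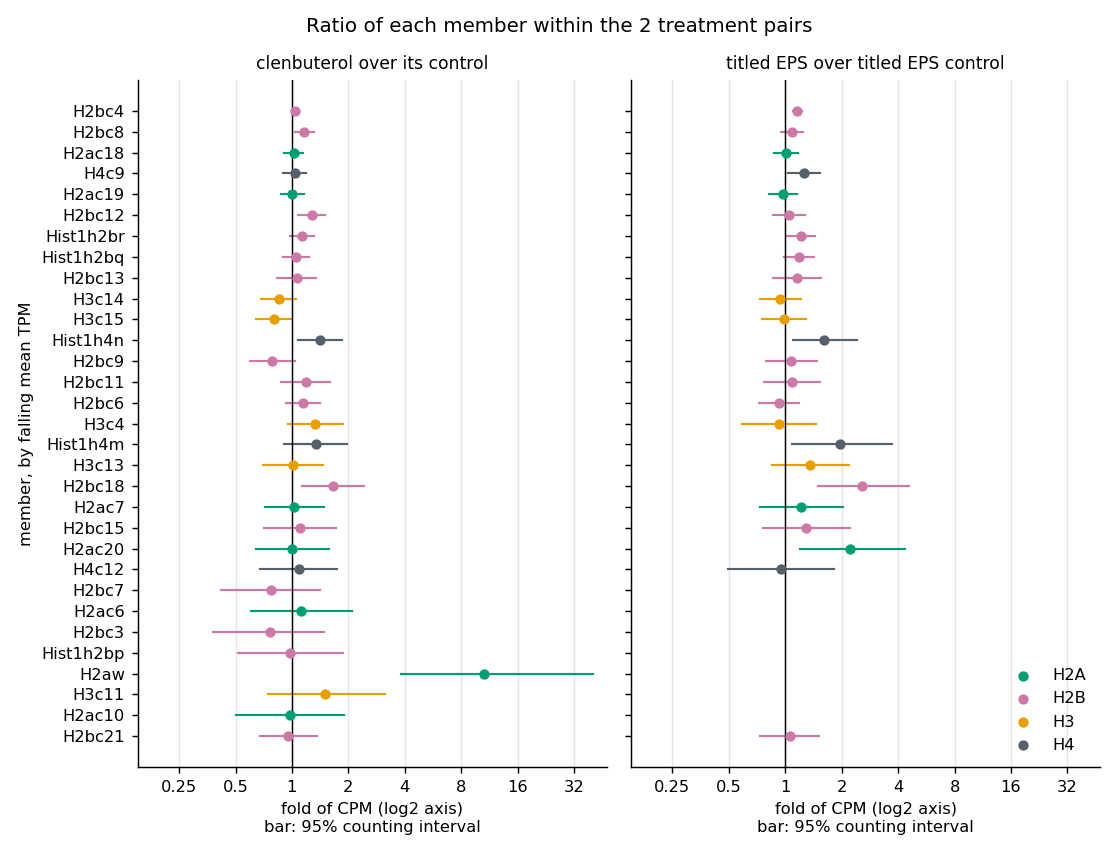
CPM fold (log2 axis) of each member with at least 20 counts in a pair: clenbuterol over its control on the left (31 members), titled EPS over titled EPS control on the right (24 members). Bars are 95% counting intervals from 1 library per group; most cross 1, and H2aw stands apart on the left at 10.5.

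In the EPS pair, taken by title, the sum over members was 643 TPM in the titled EPS library and 579 TPM in the titled EPS control, a CPM fold of 1.12 (1.08 to 1.16). By type the CPM fold was 1.25 for H4 (1.07 to 1.46), 1.14 for H2B (1.09 to 1.19), 1.03 for H2A (0.930 to 1.14) and 0.991 for H3 (0.860 to 1.14). Of 45 members tested, 2 were at least 2-fold higher in TPM, H2bc18 and Hist1h2br, against 0.868% of 13828 genes, and none was at least 2-fold lower, against 1.14%. On the log2(CPM + 1) scale 0 members were at least 2-fold higher, against 0.275% of all genes. The added 1 shrinks ratios of genes with low CPM. Without it H2bc18 had a CPM fold of 2.56 and H2ac20 of 2.23, so the 0 is not an absence of 2-fold CPM ratios. The median member differed by 0.07 on the log2 scale, against -0.02 for all genes, with 26 members above the titled control and 19 below it, against 45.4% and 54.6% of all genes.

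Of 24 members with at least 20 counts, 7 had a counting interval above 1, against 25.2% of all genes, and 0 had one below 1, against 25.5% of all genes. H2bc18 had 54 counts in the titled EPS library and 19 in the titled EPS control, a CPM fold of 2.56 (1.496 to 4.58). H2ac20 had 37 counts against 15, a CPM fold of 2.23 (1.19 to 4.37). The identical copies Hist1h4m and Hist1h4n together had 114 counts against 60, a CPM fold of 1.71 (1.24 to 2.38). H4c9 followed with a CPM fold of 1.26 (1.03 to 1.54) and H2bc4 with 1.16 (1.09 to 1.23). The lowest CPM folds were 0.923 for H2bc6, 0.924 for H3c4, 0.938 for H3c14 and 0.945 for H4c12, all with intervals that included 1. For H2bc6 the TPM fold was 1.27, so its direction depended on the measure. If the names in the table are right, these directions reverse and the 7 genes are lower after stimulation.

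Markers of muscle cells moved in the EPS pair too. All 13 myotube markers of the list used were lower in the titled EPS library than in the titled control, against 54.6% of all genes. Their median log2 difference was -0.44 and their summed level was 14984 TPM against 19982 TPM. The myoblast list moved the other way, with 8 of 9 tested genes higher, against 45.4% of all genes. Its median was 0.37 and its sum 603 TPM against 459.5 TPM. All 13 myotube markers were detected in every library, while of 8 immune and endothelial markers only Cd68 reached 1 TPM in any library, at 4.70 TPM in the titled EPS library and 3.29 TPM in the titled control. The part of these markers in the histone differences was not tested.

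The copies Hist1h2bq and Hist1h2br show how far TPM of a single copy can move. Hist1h2br had 47.4 TPM with clenbuterol and 28.1 TPM in its control, while Hist1h2bq had 20.2 TPM with clenbuterol and 38.2 TPM in its control. In counts Hist1h2br had 373 with clenbuterol against 339 in its control, and Hist1h2bq had 340 against 333. Their summed TPM was 67.6 with clenbuterol and 66.3 in its control, a TPM fold of 1.02. In the EPS pair Hist1h2br had 27.7 TPM in the titled EPS library and 12.6 TPM in the titled EPS control, on 295 against 220 counts, and Hist1h2bq had 14.4 TPM against 17.97 TPM, on 271 against 208 counts. The Hist1h2br call in that pair therefore rested on the TPM of 1 copy, and the summed copies had a CPM fold of 1.19 (1.05 to 1.36).

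**Figure D4:**
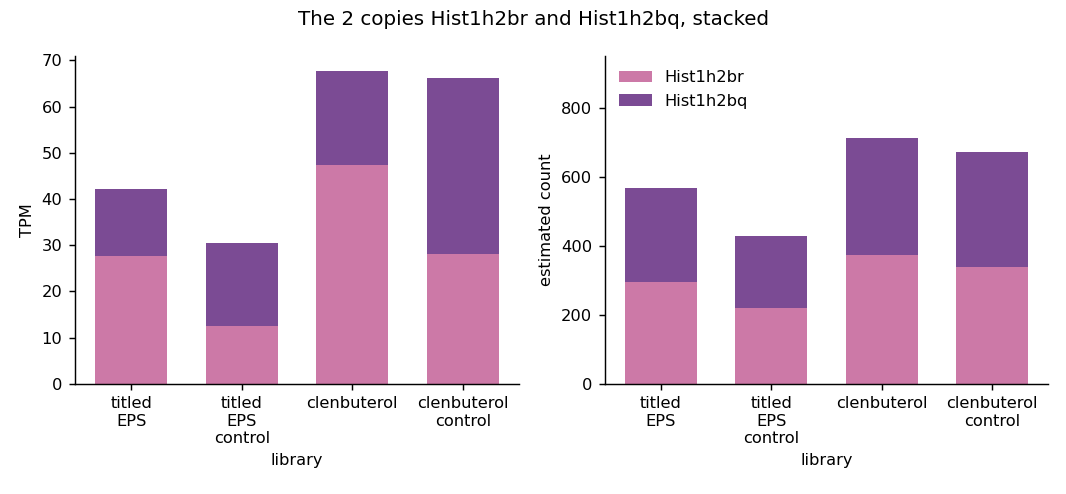
Stacked TPM (left) and estimated counts (right) of the copies Hist1h2br and Hist1h2bq in the 4 libraries. With clenbuterol and in its control the stacked TPM reached 67.6 and 66.3 while the split between the copies differed; the counts were divided almost evenly in all 4 libraries.

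Of the 24 genes on the list of histone mRNA transcription and processing, 23 had at least 1 TPM. Within either pair 0 of these 23 were at least 2-fold higher or lower. Among all genes 1.0% were higher and 0.515% lower in the clenbuterol pair, and 0.868% and 1.14% in the EPS pair. The remaining gene of the list, Zfp473, whose human counterpart is a zinc finger protein of the U7 snRNP, was below 1 TPM in every library. It had 7 counts in the titled EPS library and 38 in the titled EPS control, a CPM fold of 0.166 (0.0626 to 0.377). In the clenbuterol pair clenbuterol gave 15 counts against 10 for its control, a CPM fold of 1.54 (0.649 to 3.84). The median log2 difference of the 23 genes was -0.07 in the clenbuterol pair. With clenbuterol 5 of them were higher and 18 lower, against 46.4% and 53.6% of all genes. The lowest were Lsm11, a subunit of the U7 snRNP that cuts histone mRNA, with 3.88 TPM with clenbuterol against 5.19 TPM in the control, and Ice2, a subunit of the little elongation complex, with 4.36 TPM against 5.61 TPM. The highest were Ice1, of the same complex, with 56.9 TPM against 46.3 TPM, and Casp8ap2, which is needed for histone gene expression, with 7.79 TPM against 7.18 TPM. In the EPS pair the median was -0.01, with 11 higher and 12 lower, against 45.4% and 54.6% of all genes. Slbp itself had 30.4 TPM in the titled EPS library, 28.1 TPM in the titled EPS control, 22.1 TPM with clenbuterol and 22.1 TPM in its control. Zfp473, Slbp and Npat fall outside the rule for named genes. Slbp and Npat were chosen for their role after their values were seen, and Zfp473 is named as the gene under 1 TPM. Npat, the cyclin E/CDK2 substrate that activates histone genes in S phase, had 8.30, 8.18, 6.52 and 7.96 TPM.

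None of the 22 histone chaperone and 33 S phase genes reached 2-fold in the clenbuterol pair or the EPS pair, with medians between -0.01 and 0.05. Such differences were rare among all genes too. In the clenbuterol pair 1.0% were at least 2-fold higher and 0.515% lower, and in the EPS pair 0.868% and 1.14%. The 20 mitosis genes gave no 2-fold difference either. With clenbuterol 17 of 20 were lower than in its control, against 53.6% of all genes, with a median of -0.09. In the titled EPS library 19 of 20 were higher than in the titled EPS control, against 45.4% of all genes, with a median of 0.11. The 13 polyadenylation factors also gave no 2-fold difference in either pair, with medians of -0.05 in the clenbuterol pair and -0.07 in the EPS pair. The 11 variant histone genes, most of which are transcribed outside S phase into ordinary polyadenylated mRNA, gave medians of -0.02 and 0.05. Their summed level was 1959 TPM in the titled EPS library, 1795 TPM in the titled EPS control, 1876 TPM with clenbuterol and 1835 TPM in its control, above the clustered genes in each library. H3f3b, which encodes the replacement histone H3.3, alone had 578, 473, 616 and 556 TPM in that order.

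The clearest difference among the clustered genes lay between the experiments. Both libraries of the EPS experiment were below both of the clenbuterol experiment in 33 of the 49 members with at least 1 TPM in any library (67.3%), against 25.1% of all 14213 such genes. They were above in 1 member, H2ac12 (2.04%), against 34.7% of all genes. The median log2 ratio of the pair means was -0.47 for the members and 0.04 for all genes. H4c9 averaged 34.3 TPM over the EPS experiment and 69.7 TPM over the clenbuterol experiment, a ratio of 0.492, and H2bc4 averaged 227 TPM against 330 TPM, a ratio of 0.690. This comparison does not depend on which EPS library is the control. Each experiment has its own control and shares no library with the other, so culture, handling and experiment cannot be told apart. These counts were chosen after the values were seen.

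Set against the clenbuterol control, the summed CPM of the members was 0.721-fold (0.698 to 0.746) in the titled EPS library and 0.644-fold (0.622 to 0.667) in the titled EPS control. Both values share that 1 control library. By type the titled EPS control was lowest for H4, at 0.471-fold (0.409 to 0.541), and stood at 0.661-fold for both H2A and H2B.

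Genes of cell division went the other way between the experiments. In 20 of 20 mitosis genes both EPS-experiment libraries were above both clenbuterol-experiment libraries, and the same held for 24 of 33 S phase genes, with 4 below. Of all 14213 genes 34.7% were above and 25.1% below, the shares to hold beside each list here. The mitosis genes summed to 930 TPM in the titled EPS library, 852 TPM in the titled EPS control, 577 TPM with clenbuterol and 615 TPM in its control, and the S phase genes to 1107, 1043, 950 and 962 TPM. Histone processing genes were above in 15 of 23, with 2 below, and polyadenylation factors in 10 of 13, with 1 below. Of the 13 myotube markers 11 were below and 0 above, and of the 10 myoblast markers 6 were below and 1 above. The 5 detected fibroblast markers of 8 in the list were above in 4 cases and below in 1. The sum of that list was 5331 TPM in the titled EPS library, 5848 TPM in the titled EPS control, 3633 TPM with clenbuterol and 3343 TPM in its control. Whether cell makeup has a part in the histone difference was not tested.

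**Figure D5:**
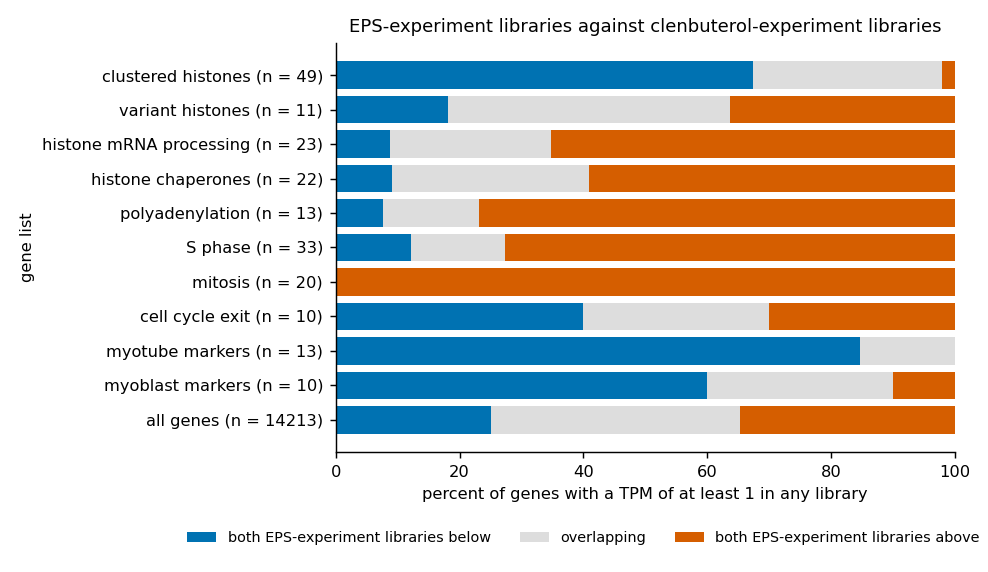
Percent of genes in each list (those with at least 1 TPM in any library) for which both EPS-experiment libraries lay below, overlapped with or lay above both clenbuterol-experiment libraries. The clustered histones lay below in 67.3% and the mitosis genes above in 20 of 20 cases, while all 14213 genes were split 25.1% below and 34.7% above.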

How the data were processed

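Reads were aligned with HISAT2 to mm10, per the submitters' processing notes; how reads were counted, with which annotation and strand setting, and how they were shared between copies: not given in the sources used here. One gene table with estimated counts (expected counts, here all whole numbers, so rounding changed nothing), FPKM and TPM was deposited by the authors. The deposited signal coverage tracks were not used. TPM was the main level; differences were log2(TPM + 1) ratios of genes with at least 1 TPM in either library, called at 2-fold. CPM used TMM factors from edgeR 4.0.16, with DESeq2 1.42.0 size factors, library totals, FPKM, pseudocounts of 0.1 and 5, and filters as alternatives. CPM folds carry 95% Clopper-Pearson intervals. They are quoted at 20 or more counts in the higher library, except for Zfp473 in the clenbuterol pair. The values of single named members in the processing checks also include lower counts. A count of 0 allows up to 3 counts. R 4.3.3, Python 3.11.15 and scipy 1.17.1 were used. The CPM intervals and the 2-fold calls on CPM were tested on simulated counts that held counting error only. The TPM calls, the sharing of reads between copies and the comparison between experiments were not simulated. Members and lists were chosen with earlier results of these data known. Named with values were the 12 members with the highest mean TPM, the 4 highest and 4 lowest CPM ratios of each pair, the leading member of each type, members whose TPM and CPM ratios were over 2-fold apart, and at most the 2 highest and 2 lowest of other lists; copies, head-to-head pairs and extremes of a stated range are named beside their counts. The sequences come from GENCODE M21 and RefSeq, and no protein sequence is printed.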

Additional observations from a re-analysis of the deposited data

How the results depend on the processing

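No paired analysis was possible because each group holds 1 library, and no library could be left out for the same reason. Counts of members past 2-fold depended on the scale. A pseudocount pulls ratios of low values towards 1, and a larger pseudocount pulls them further. Other causes were not tested. In the clenbuterol pair the 2 higher members became 5 with a pseudocount of 0.1, 0 with a pseudocount of 5, 1 with CPM and TMM factors, 0 with CPM and library totals, and 1 with DESeq2 size factors. In the EPS pair the 2 higher members became 6 with a pseudocount of 0.1, 0 with a pseudocount of 5, 1 in FPKM, and 0 each with CPM and TMM factors, CPM and library totals, and DESeq2 size factors; the 0 lower members became 4 with a pseudocount of 0.1. With groups named as in the deposited data, 0 were higher and 2 lower. The fold of summed TPM in that pair, 1.11, was 1.16 in FPKM and turned round to 0.8997 with the names of the deposited data. The median log2 ratio of the members kept its sign and stayed between 0.02 and 0.06 in the clenbuterol pair and between 0.01 and 0.11 in the EPS pair, except with the data names, where it was -0.07. Without H2bc4 the fold of the summed TPM was 1.09 in the clenbuterol pair and 1.10 in the EPS pair. With library totals 46 of 46 values of single named members stayed within their intervals, and with TPM ratios and no pseudocount 40 did and 6 moved. Library totals change every CPM fold of a pair by the same small factor. The 46 of 46 was therefore close to fixed in advance and says little about stability. Depth limits 27 of the 58 members, which had under 20 counts in every library.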

Other observations

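Linker histone genes lie among the core histone genes on chromosome 13 and were outside the rule, and they were looked up after the members' values were seen. H1f2, which encodes a linker histone that binds the DNA between nucleosomes, had 254.6 TPM in the titled EPS library, 214.9 TPM in the titled EPS control, 480.4 TPM with clenbuterol and 443.6 TPM in its control. It was above the most abundant core histone gene, H2bc4, in all 4 libraries. Its CPM fold was 1.10 (95% counting interval 1.06 to 1.14) for clenbuterol over its control and 1.22 (1.15 to 1.29) for titled EPS over its titled control. Both EPS-experiment libraries were below both clenbuterol-experiment libraries for H1f2, as they were for H2bc4. H1f3 had the same order, with 10.2 and 9.30 TPM in the titled EPS library and its titled control and 17.9 and 18.96 TPM with clenbuterol and in its control, and a CPM fold of 0.962 (0.789 to 1.17) for clenbuterol over its control. H1f4 lay the other way by a small margin, with 5.76 and 5.72 TPM in the titled EPS library and its titled control and 5.09 and 5.60 TPM with clenbuterol and in its control. H1f1 had 29 counts with clenbuterol and 10 in its control, a CPM fold of 2.98 (1.41 to 6.86), and 8 and 10 counts in the titled EPS library and its titled control. H1f5 had 23 counts with clenbuterol and 13 in its control, a CPM fold of 1.82 (0.885 to 3.91), and 17 and 13 counts in the titled EPS library and its titled control. These are values of 1 library each, with no replicate check.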
